A study of Bos taurus with 5 samples.

Results

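The genes of the mitochondrial protein import machinery were examined in cattle (Bos taurus), in 5 libraries of sequenced RNA. They were taken from the table of 27607 genes by name: every symbol beginning with TIMM or TOMM, together with PAM16, DNAJC15, DNAJC19, GRPEL1, HSPA9, PMPCA, PMPCB, SAMM50, MTX1, MTX2 and ROMO1. The rule found 36 genes, each with a single entry. The libraries are labelled as brain, skin, lung, heart or limb tissue, with 1 library per label, and per the labels' protocols cells were lysed and their RNA pre-amplified on a microfluidic chip (C1-HT IFC of Fluidigm). The sources used here do not give strain, age, treatment or the number of cells or animals behind a library. There were no replicates, so the differences below are between single libraries, and no value carries an error or a p-value.

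Nearly all mitochondrial proteins are made in the cytosol and must be imported. The translocase of the outer membrane (TOM) is the common entry gate. From there, outer membrane barrels go to the sorting and assembly machinery (SAM), small chaperones of the intermembrane space (the small TIM proteins) escort membrane proteins across the aqueous gap, the TIM22 complex inserts metabolite carriers into the inner membrane, and the TIM23 complex passes proteins with a cleavable presequence into the matrix. There an ATP-driven motor built around mitochondrial Hsp70 pulls the chain in, and the mitochondrial processing peptidase cuts the presequence off. Because every cell with mitochondria needs these steps, the core subunits are usually treated as housekeeping genes.

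Values were taken as FPKM, which is fragments per kilobase of transcript scaled to the library's total. This scale is meant for setting levels of different genes side by side. The unit was assumed, and whether reads covered whole transcripts evenly is not known, so ranks between genes are uncertain. Marker genes did not match the tissue labels. Of 5 defining markers for each tissue, the library with the matching label had 0 above 0 FPKM for brain, lung, heart and limb and 1 for skin, KRT10, which was above 0 in all 5 libraries. Under labels that did not match, the lung marker SFTPC was at 34.2 FPKM in the limb library and the heart marker MYH6 at 2.68 FPKM in the brain one. The skin marker KRT5 was above 0 in the lung library only. The name of a library below (the brain library, for example) is therefore its label only and does not stand for that tissue. Genes above 0 numbered 5109 in the skin and 5319 in the limb library, against 5991 in the lung, 6599 in the brain and 6634 in the heart library. The number of reads behind a value is not known. The spacing of low values between the brain and heart libraries put 1 read at a median of 7.52 FPKM in the brain one, a rough level. From fewer genes, the skin library gave 9.94, 12.4 and 7.12 FPKM against the lung, heart and limb ones. Members listed at 0 or at up to about 10 FPKM are therefore at the edge of what was measured. Values somewhat above that may also rest on few reads. Fewer cells of a type and less RNA per cell cannot be told apart in such libraries.

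Most import genes were detected in every library, and TOMM5, ROMO1, TOMM6 and TOMM7 had the highest means of the set. Of the 36, 24 were above 0 in all 5 libraries, 11 were listed at 0 in 1 to 3 libraries and TOMM20L was listed at 0 in all. The brain library listed 5 of them at 0, the skin 5, the lung 7, the heart 4 and the limb 8. The remaining 35 had a mean of at least 1 FPKM, the level used as a filter. Among them 4, 4, 6, 3 and 7 were listed at 0 in the brain, skin, lung, heart and limb libraries, where 28.3%, 43.6%, 34.2%, 28.6% and 41.3% of all 8694 genes past the same filter were listed at 0. Level moved with detection. Of the 18 members with a mean of 100 FPKM or more, 17 were above 0 in all 5 libraries, where 91.8% of all genes at that level were. Of the 15 members with a mean between 10 and 100 FPKM, 7 were above 0 in all 5, where 34.1% of all genes at that level were. The median of the members' means was 118 FPKM, against 13.9 FPKM for all genes past the filter, so genes at the same level are the closer background.

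**Figure D1:**
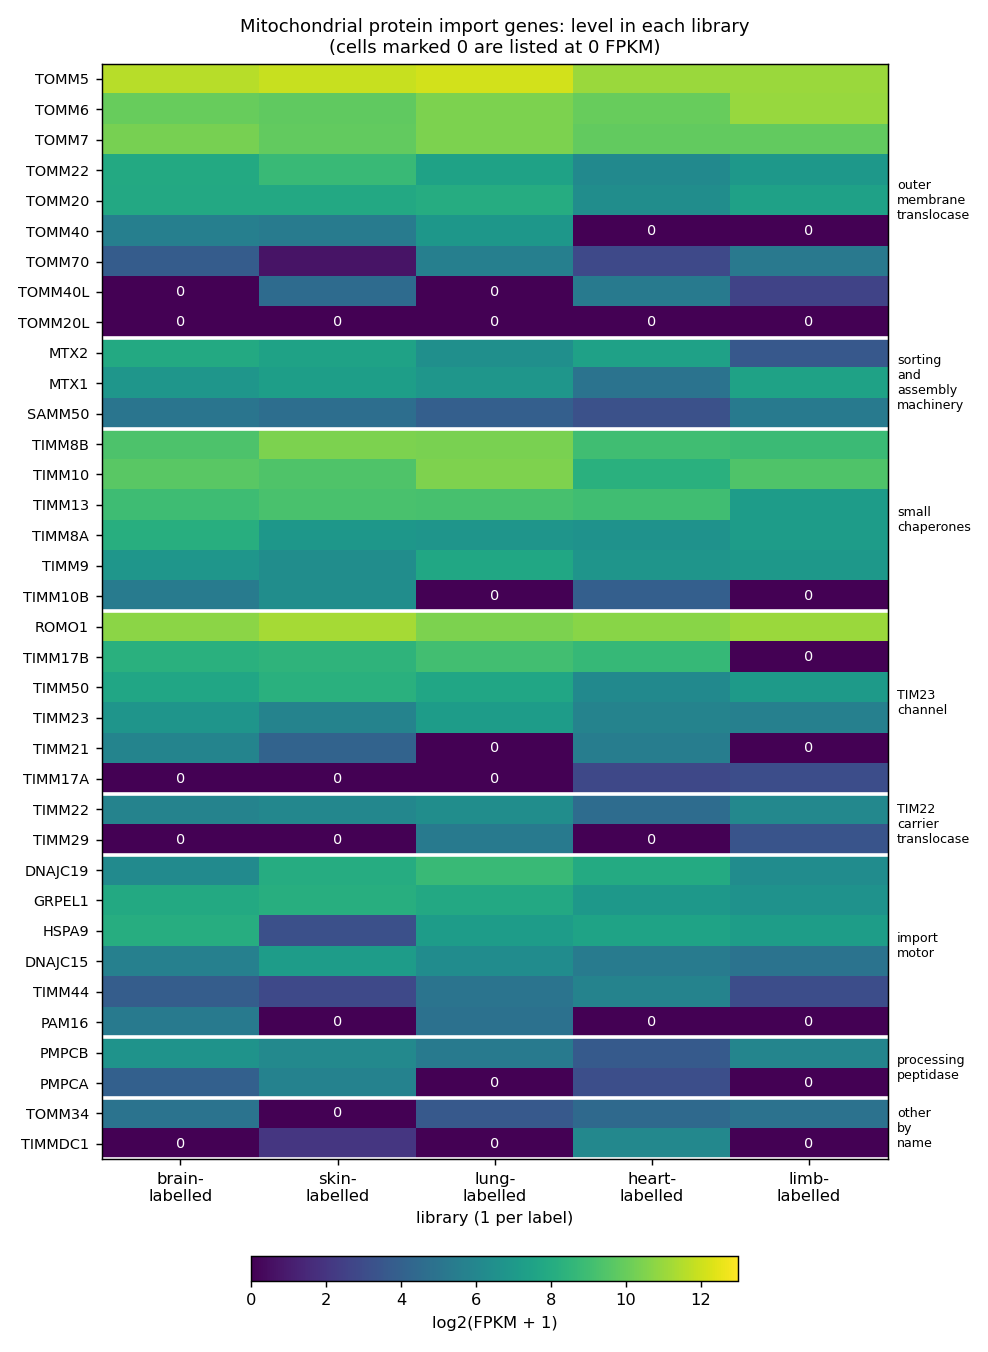
Level of the 36 import genes, 1 row per gene grouped by role, in the 5 libraries, 1 column per label; colour gives log2(FPKM + 1) and a cell marked 0 was listed at 0 FPKM. The brightest rows are TOMM5, TOMM6, TOMM7 and ROMO1, and the dark cells include TIMM17B in the limb library and TOMM40 in the heart and limb libraries.

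The TOM complex held the most abundant members. TOMM5, TOMM6 and TOMM7 are small single-span subunits that stabilise the complex around its channel. TOMM5 stood at 3130 FPKM in the brain, 3812 FPKM in the skin, 4364 FPKM in the lung, 2121 FPKM in the heart and 2088 FPKM in the limb library, and its mean ranked 52 among all genes of the table. TOMM6 was at 1002, 894, 1366, 999 and 2054 FPKM in the same order of labels. It was the only one of these small subunits to be highest in the limb library. TOMM7 had the narrowest range of the 24 members above 0 in all libraries, at 1271, 945, 1367, 955 and 953 FPKM, a highest-to-lowest ratio of 1.45. Together with ROMO1 of the TIM23 complex, these genes made up 56.5% to 63.1% of the summed FPKM of all 36 members in 4 libraries and 71.5% in the limb library. All of them encode very small proteins. Transcript lengths were not used here, so whether short transcripts raise these values was not tested.

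The receptors, which recognise incoming precursors, were lower. TOMM20, the main receptor for presequences, stood at 232, 229, 262, 80.8 and 173 FPKM in the brain, skin, lung, heart and limb libraries. TOMM22, which links receptors to the channel, was at 235, 443, 181, 71.9 and 122 FPKM. Both were lowest in the heart library. TOMM70, the receptor for carriers delivered by cytosolic chaperones, was lower than both in every library, at 12.8 FPKM in the brain, 0.62 FPKM in the skin, 47.7 FPKM in the lung, 6.31 FPKM in the heart and 37.5 FPKM in the limb library.

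The channel itself was listed in only part of the libraries. TOMM40, the beta-barrel pore, was at 48.5 FPKM in the brain, 40.8 FPKM in the skin and 117 FPKM in the lung library, and at 0 in the heart and limb libraries. Its paralog TOMM40L was at 22.5 FPKM in the skin, 38.5 FPKM in the heart and 5.13 FPKM in the limb library, and at 0 in the brain and lung ones. Each library therefore listed at least 1 of the 2 channel genes above 0, and the skin library both. Their summed level was 48.5, 63.4, 117, 38.5 and 5.13 FPKM from the brain to the limb library. In the limb library this sum is below the level put at 1 read in the brain one. TOMM20L, a paralog of TOMM20, was listed at 0 throughout. TOMM34, a cytosolic cochaperone named for the complex but not a membrane subunit, was listed at 0 in the skin library, against 30.3 FPKM in the brain, 11.4 FPKM in the lung, 21.0 FPKM in the heart and 29.4 FPKM in the limb library.

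In the sorting and assembly machinery the partners diverged between libraries. MTX2 (ENSBTAG00000006693), a metaxin subunit on the cytosolic face of the complex, was at 10.9 FPKM in the limb library, against 239 FPKM in the brain, 177 FPKM in the skin, 88.3 FPKM in the lung and 175 FPKM in the heart library. After adding 1 to each value, the lowest of the other 4 was 7.49 times the limb value. Its partner MTX1 was highest in that library, at 179 FPKM, with 111, 157, 114 and 29.6 FPKM in the brain, skin, lung and heart libraries. MTX1 made up 94.3% of the summed FPKM of both metaxins in the limb library, against 31.8%, 47.1%, 56.3% and 14.5% in the others in the same order. The barrel-shaped core SAMM50 was low in all 5, at 32.4, 24.96, 14.4, 8.26 and 40.5 FPKM from the brain to the limb library, and was highest and lowest in the same libraries as MTX1.

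The small TIM proteins were abundant, and 5 of the 6 were highest in the skin or lung library. These libraries were also highest for 51.4% of the 2607 genes above 0 in all 5, among which TIMM10B is not counted. The small TIM group summed to 2433, 2978, 3686, 1551 and 1574 FPKM in the brain, skin, lung, heart and limb libraries. TIMM9 and TIMM10 form the chaperone for carriers and TIMM8A pairs with TIMM13. TIMM8B, a paralog of TIMM8A, stood at 670 FPKM in the brain, 1390 FPKM in the skin, 1322 FPKM in the lung, 513 FPKM in the heart and 471 FPKM in the limb library. The skin and lung values lay close together and above the other 3. TIMM10 was at 828, 680, 1452, 302 and 687 FPKM and TIMM9 at 112, 81.3, 216, 109 and 123 FPKM in the same order, both highest in the lung library. TIMM13 was at 147 FPKM in the limb library, against 502, 626, 587 and 512 FPKM in the brain, skin, lung and heart libraries. These other 4 values lay close together, and only the limb library stood away from them.

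TIMM8A and TIMM10B behaved differently from their paralogs. TIMM8A was highest in the brain library, at 280.5 FPKM, with 118, 109, 99.4 and 146 FPKM in the skin, lung, heart and limb libraries. It made up 29.5% of the summed FPKM of TIMM8A and TIMM8B in the brain library, against 7.84%, 7.62%, 16.2% and 23.7% in the others in the same order. TIMM10B, a relative of TIMM10 that sits on the TIM22 complex, was at 41.2 FPKM in the brain, 82.9 FPKM in the skin and 14.5 FPKM in the heart library and was listed at 0 in the lung and limb ones. TIMM10 was at least 8.20 times TIMM10B in each of the 3 libraries that listed both.

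The TIM23 complex held the most abundant member listed at 0 in a library. TIMM17B (ENSBTAG00000018496), a multi-span subunit of the presequence channel, was listed at 0 in the limb library, against 309 FPKM in the brain, 349 FPKM in the skin, 529 FPKM in the lung and 425 FPKM in the heart library. Its paralog TIMM17A, which can take the same place in the complex, was at 7.40 FPKM in the limb and 6.10 FPKM in the heart library and at 0 in the other 3. The limb library thus listed the pair at 7.40 FPKM in sum, against 309 to 529 FPKM in the other 4. TIMM23, the partner channel subunit, was lowest in the limb library too, at 49.3 FPKM, with 108, 56.1, 146 and 56.0 FPKM in the brain, skin, lung and heart libraries. The skin, heart and limb values of TIMM23 lay within 7 FPKM of each other.

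ROMO1, a small subunit that is the mammalian relative of a lateral gatekeeper of the yeast complex, was at 1724, 2467, 1374, 1631 and 2109 FPKM from the brain to the limb library, a highest-to-lowest ratio of 1.80. TIMM50, the receptor that takes precursors over from TOM, was at 207, 305, 203, 71.5 and 134 FPKM and was lowest in the heart library, as TOMM20 and TOMM22 were. TIMM21, which tethers the complex to TOM and to the respiratory chain, was at 57.6 FPKM in the brain, 16.8 FPKM in the skin and 44.5 FPKM in the heart library and at 0 in the lung and limb ones. Of the TIM22 genes, the channel TIMM22 was at 54.9, 63.7, 81.4, 22.9 and 66.3 FPKM in the same order of labels. TIMM29, a subunit that stabilises TIM22, was listed at 38.7 FPKM in the lung and 9.50 FPKM in the limb library only.

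**Figure D2:**
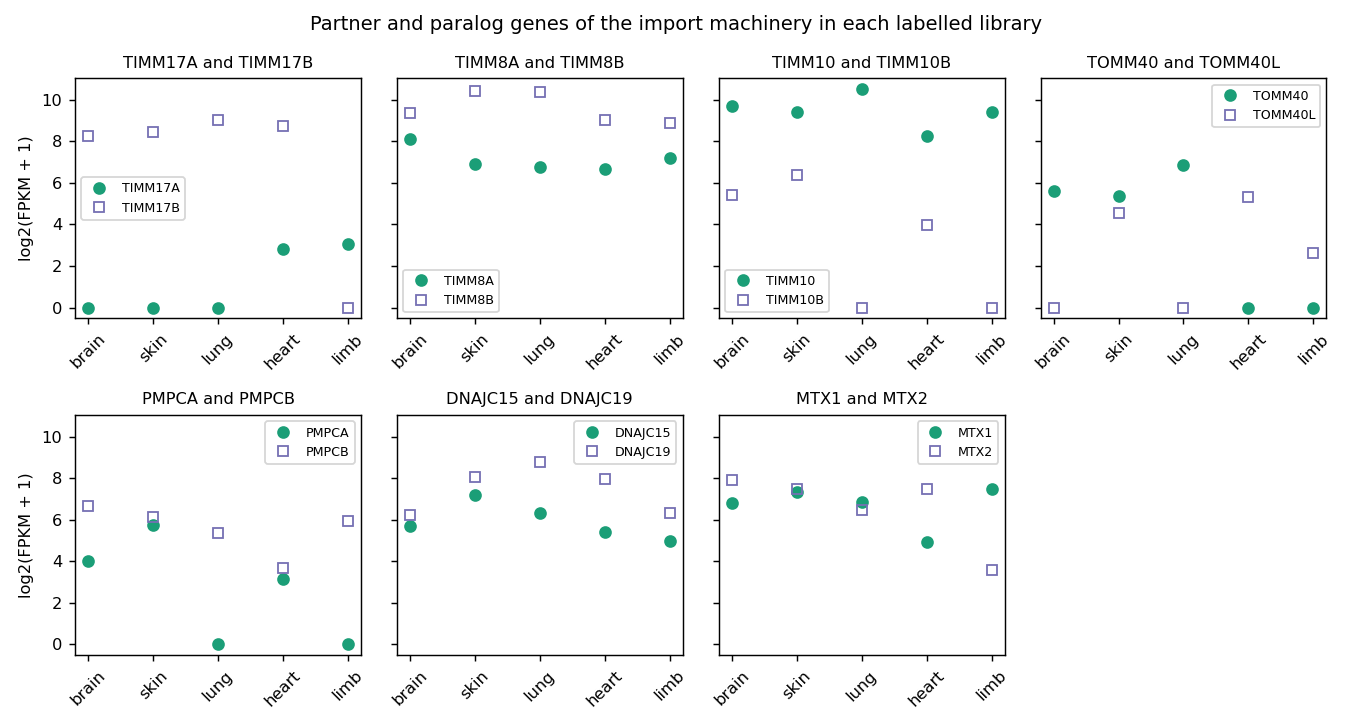
Partner or paralog genes of the import machinery, 1 panel per pair; the vertical axis is log2(FPKM + 1) and each library is 1 point per gene, with 0 standing for a gene listed at 0 FPKM. TIMM17B is high in 4 libraries and at 0 in the limb one, MTX1 and MTX2 change order between the heart and limb libraries, and TIMM8B is above TIMM8A in all 5.

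In the import motor the central chaperone was low in 1 library while the exchange factor GRPEL1 was not. HSPA9 (ENSBTAG00000011419), the mitochondrial Hsp70, was at 7.97 FPKM in the skin library, against 271 FPKM in the brain, 145 FPKM in the lung, 184 FPKM in the heart and 151 FPKM in the limb library. The lowest of the other 4 was 16.2 times the skin value after adding 1. That skin value lies near the rough level put at 1 read. GRPEL1, the nucleotide exchange factor of HSPA9, was highest in the skin library, at 285 FPKM, with 238, 233, 119 and 98.9 FPKM in the brain, lung, heart and limb libraries. The matrix chaperonin HSPD1, which folds many imported proteins, was at 482 FPKM in the skin library and 318 to 435 FPKM in the other 4 and so was highest where HSPA9 was lowest. HSPD1 is no member and was singled out after its values were seen. Its cochaperonin HSPE1 was highest in the lung library, at 2879 FPKM against 1474 FPKM in the skin one. Within the motor, DNAJC15 was highest in the skin library, while TIMM44 was lowest there at 6.41 FPKM and PAM16 was listed at 0. GRPEL2, also no member, was listed at 0 in the skin library and at 4.08 to 11.0 FPKM in the other 4.

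The J-domain subunits, which stimulate the ATPase of HSPA9, were both listed in all 5 libraries. DNAJC19 was at 74.7, 265, 444, 249 and 80.1 FPKM and DNAJC15 at 49.9, 147, 79.7, 41.1 and 30.0 FPKM from the brain to the limb library. DNAJC19 was above DNAJC15 in each library, by 1.5 times in the brain and 6.07 times in the heart library at the ends of the range. PAM16, the J-like regulator that binds them, was at 38.4 FPKM in the brain and 28.0 FPKM in the lung library and listed at 0 in the other 3. TIMM44, the scaffold that ties the motor to the channel, was highest in the heart library at 56.0 FPKM, with 13.3, 6.41, 30.8 and 7.27 FPKM in the brain, skin, lung and limb libraries.

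The processing peptidase needs both of its subunits for activity, and they were listed unevenly. PMPCB, which carries the catalytic site, was at 99.8, 68.0, 39.5, 11.9 and 59.7 FPKM from the brain to the limb library. PMPCA, which binds the presequence, was at 14.95 FPKM in the brain, 52.9 FPKM in the skin and 7.76 FPKM in the heart library and at 0 in the lung and limb ones. PMPCB was above PMPCA in all 5. TIMMDC1 (ENSBTAG00000012581), which shares the TIMM name but is an assembly factor of respiratory complex I, was at 66.1 FPKM in the heart library, against 3.13 FPKM in the skin library and 0 in the other 3. Its heart value was 16.3 times the skin one after adding 1.

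Each library was then set against the other 4 by 2 rules of size. A gene was called enriched at 10 FPKM or more with its value plus 1 at least 4 times the highest of the other 4 plus 1, and depleted in the mirror case with all other 4 at 10 FPKM or more. TIMMDC1 in the heart library was the only enriched member, 1 of 35, where 4.23% of all genes past the filter were called. The brain, skin, lung and limb libraries had 0 enriched members, against 3.93%, 3.91%, 5.08% and 3.61% of all genes. All genes had a median of means of 13.9 FPKM, against 118 FPKM for the members. No share of enriched genes at the same level was taken, so the low number of enriched members is not a result about import genes. Depleted members were HSPA9 and TOMM34 in the skin library and TIMM17B and MTX2 in the limb library, 2 of 35 each, where 3.13% and 2.74% of all genes were called. In the brain, lung and heart libraries 0 members were depleted, against 0.61%, 2.17% and 0.966% of all genes. Only a gene at 10 FPKM or more in all other 4 libraries could be called depleted. Counted among such genes, 2 of 22 members were depleted in the skin library, against a background of 12.7%, and 2 of 21 in the limb library, against 11.2%. These shares lie near the background, so the number of depleted members is not a result about import genes.

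Over the whole set, the heart and limb libraries sat below the others. The 36 members summed to 12037 FPKM in the brain, 13815 FPKM in the skin, 14990.4 FPKM in the lung, 9049 FPKM in the heart and 10069 FPKM in the limb library. This was 1.12%, 1.18%, 1.28%, 0.820% and 0.894% of the library's total. The highest sum was 1.66 times the lowest, and 1.44 times after rescaling each library by the median ratio over genes above 0 in all 5. That rescaling moved the libraries by between -0.14, in the lung, and 0.06, in the heart library, on the log2 scale. Mitochondrially encoded genes took 4.84%, 6.09%, 5.98%, 5.23% and 4.27% of the total from the brain to the limb library, also highest in the skin and lung libraries, and whether the one moves with the other beyond these 5 libraries was not tested.

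**Figure D3:**
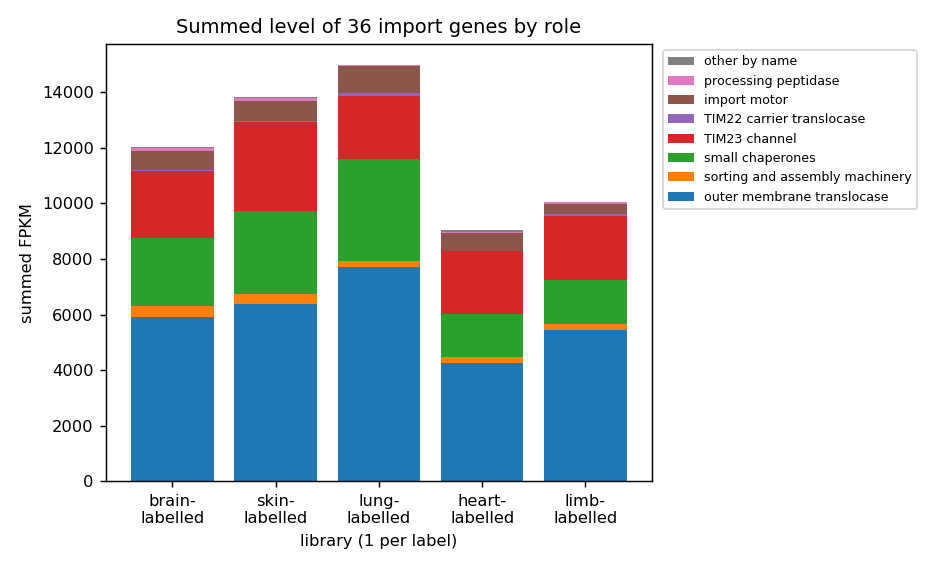
Summed FPKM of the 36 import genes in each library (1 bar per label, starting at 0), split by role. The lung bar reaches 14990.4 FPKM and the heart bar 9049 FPKM, and the outer membrane translocase takes 46.2% to 54.0% of every bar.

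The difference from the other libraries was also taken gene by gene, as log2(FPKM + 1) in a library minus the mean of the other 4. Its median over the 35 members was 0.30 in the brain library, where the median over all 8694 genes was 0.15. In the skin library it was 0.53, against -0.73 for all genes, and in the lung library 0.46, against -0.16. In the heart library it was -0.53, against -0.01, with 22 of 35 members below the mean of the other 4 (62.9%, against 50.3% of all genes). In the limb library it was -0.38, against -0.67, with 21 of 35 below, a share of 60.0% that is near the 59.4% of all genes. Genes listed at 0 pull these medians. Among genes with a mean of 100 FPKM or more, 18 members had medians of 0.30, 0.62, 0.52, -0.47 and -0.30 in the brain, skin, lung, heart and limb libraries, where all 1358 genes had 0.09, 0.13, 0.21, -0.12 and 0.01. At that level 13 of the 18 members in the heart and 12 of the 18 in the limb library lay below the mean of the other 4 (72.2% and 66.7%, against 56.1% and 49.6% of all genes). After rescaling by the median ratio the heart median of the 35 members was -0.36, against 0.13 for all genes. Each library is part of the mean that the others are set against, so the 5 medians are not independent.

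**Figure D4:**
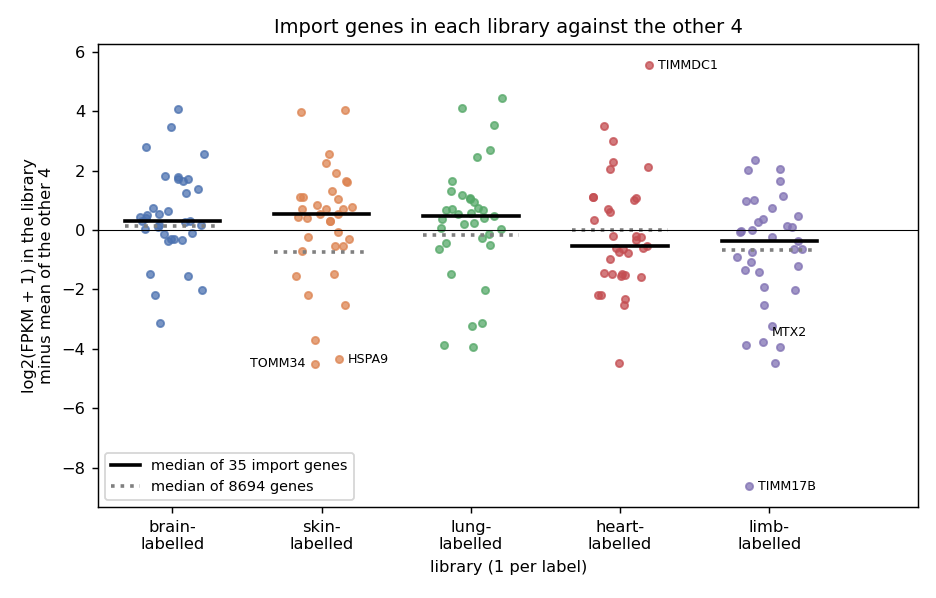
Difference in log2(FPKM + 1) between each library and the mean of the other 4, 1 point per import gene (the 35 that passed the filter, spread sideways at random). Black lines give their median and dotted grey lines the median of all 8694 genes; the heart median of the members is -0.53 and TIMM17B is the lowest point of the limb library.

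Gene by gene, the low values of the heart library fell in several steps of the pathway. Of the 24 members above 0 in all libraries, 9 were lowest in the heart library, or 37.5%, where 21.9% of the 2607 genes above 0 in all libraries were lowest there. They were the receptors TOMM20, TOMM22 and TIMM50, the chaperones TIMM10 and TIMM8A, the carrier channel TIMM22, MTX1, SAMM50 and PMPCB. The limb library was lowest for 7 (29.2%, against 20.8%), the skin for 6 of the 24 (against 20.4%) and the brain and lung for 1 each (4.17%, against 15.5% and 21.5%). The lung library was highest for 9 (37.5%, against 26.5%) and the skin for 7 (29.2%, against 24.9%). Only TIMM44 of the 24 was highest in the heart library, or 4.17%, against 13.3%.

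Pairs of libraries were compared with the same sizes: the higher value had to reach 10 FPKM and, after adding 1, to be 4 times the lower. Over the 10 pairs, 79 of 350 comparisons of a member were apart, or 22.6%, against 31% for all genes. Among members with a mean of 100 FPKM or more it was 20 of 180, or 11.1%, against 13.3% of all genes at that level. Of 35 members, 5 were apart between the brain and skin libraries (31.8% of all genes), 5 between the brain and lung (31.1%), 5 between the brain and heart (24.5%) and 7 between the brain and limb (29.4%). Between the skin library and the others the counts were 10 with the lung (32.5%), 11 with the heart (32.6%) and 11 with the limb (32.5%). The last 3 pairs had 9 between the lung and heart (32.4%), 5 between the lung and limb (34.2%) and 11 between the heart and limb libraries (29.4%). In 2 of the 10 pairs, picked out after all were counted, the members that were apart all lay on 1 side. In the brain library 7 were higher than in the limb (18.4% of all genes) and 0 were lower (11%), and in the lung library 5 were higher than in the limb (19.5%) and 0 were lower (14.7%). MTX2, TIMM17B, TOMM40 and PAM16 were among the higher ones in both pairs. Apart from MTX2 and DNAJC19, every member called in these pairs was listed at 0 in the limb library. The shares of all genes beside these counts are not from genes at the same level.

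The spread between libraries differed widely among members. The SD of log2(FPKM + 1) over the 5 libraries was 0.26 for TOMM7, 0.33 for ROMO1, 0.48 for TOMM5 and 0.49 for TOMM6. It reached 3.87 for TIMM17B and 3.32 for TOMM40, both listed at 0 in at least 1 library. Among the members above 0 in all 5 it was largest for TOMM70, at 1.99, HSPA9, at 1.98, and MTX2, at 1.76. The median over the 35 members was 1.02, against 1.82 for all genes past the filter. With a mean of 100 FPKM or more it was 0.77 over 18 members and 0.68 over 1358 genes. Mitochondrial ribosomal protein genes, with a similar median level of 135 FPKM, had a median SD of 1.02 over 76 genes. The NDUF genes of respiratory complex I, at a median of 441 FPKM, had 0.49 over 46 genes. The heart median difference was -0.15 and -0.35 in these groups and -0.05 over 42 other genes of import and protein maturation, beside -0.53 for the import genes. In the same order of groups, the lung median difference was 0.97, 0.36 and 1.02, beside 0.46 for the import genes. The skin one was 0.18, 0.44 and 0.03, beside 0.53. The differences between groups were not tested.

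**Figure D5:**
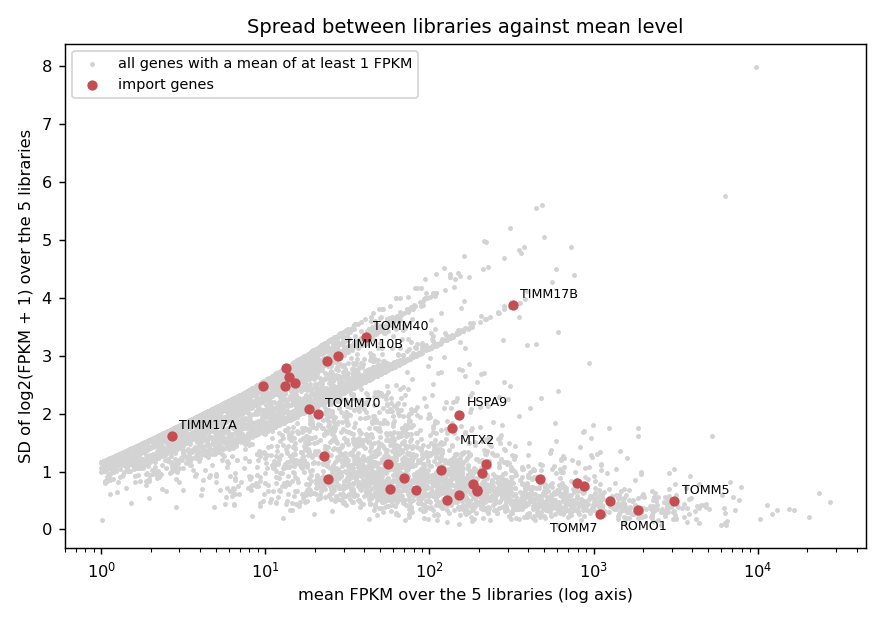
SD of log2(FPKM + 1) over the 5 libraries (vertical axis) against mean FPKM (horizontal log axis) for the import genes, in red, and all genes past the filter, in grey. TOMM5, TOMM7 and ROMO1 lie low at the right, and TIMM17B stands at 3.87 among genes listed at 0 in a single library.

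Other genes of import and of the maturation of imported proteins were counted as a list of 44 symbols, of which 43 had an entry and 42 a mean of at least 1 FPKM. The highest means belonged to HSPE1, the cochaperonin of HSPD1, at 1065, 1474, 2879, 1034 and 937 FPKM from the brain to the limb library, to MICOS13, a subunit of the cristae junction complex, at 812, 1474, 899.9, 882 and 1347 FPKM, and to the cytosolic chaperone HSPA8, at 531, 1106, 1465, 552 and 603 FPKM. Of the 42, 4 were enriched in a library, where 20.8% of all genes past the filter were enriched in one. They were PINK1, a kinase whose import is a sensor of mitochondrial damage, at 36.4 FPKM in the skin library, MTX3, a further metaxin, at 21.1 FPKM in the lung library, and the proteases HTRA2 at 14.6 FPKM and XPNPEP3 at 22.6 FPKM in the heart library. A further 4 of the 42 were depleted, where 9.62% of all genes were depleted in a library, which is near the share in the list. The median of the means was 47.9 FPKM over the 42, against 13.9 FPKM over all genes. No share of calls at the same level was taken, so neither count is a result about these genes. HSCB, a J-domain protein of iron-sulfur cluster assembly, and IMMP2L, an inner membrane peptidase, were listed at 0 in the skin library, against 11.0 to 109 FPKM and 32.9 to 75.4 FPKM in the other 4. STIP1, a cochaperone linking Hsp70 and Hsp90, and YME1L1, an inner membrane protease, were listed at 0 in the limb library, against 57.1 to 172 FPKM and 15.6 to 62.0 FPKM. CHCHD4, the oxidoreductase that traps small TIM proteins in the intermembrane space and was singled out after its values were seen, was at 68.7, 158, 359.98, 1.70 and 0 FPKM from the brain to the limb library. The summed level of the small TIM group was highest in the lung and lowest in the heart and limb libraries, at 3686 FPKM against 1551 and 1574 FPKM. GFER of the same list went otherwise, at 33.4, 42.0, 36.9, 44.7 and 75.1 FPKM from the brain to the limb library. Whether CHCHD4 moves with the small TIM group was not tested.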

How the data were processed

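RNA of 5 cattle libraries, 1 per tissue label, was sequenced. Per the submitters' processing notes, bcl2fastq, STAR and RSEM were used with the ARS-UCD1.2 build; the sources used here give no versions, annotation or filters. The table deposited by the authors holds values taken here as FPKM, an assumption, since no header or label names the unit. Of values above 0, 98.7% to 99.1% were not whole numbers. Libraries summed to 1072430 to 1172800, more than the fixed total of TPM. Fractional counts or another scaling are not excluded by these values. The deposited values were used with no count model, since no counts could be recovered. Depth was sought in ratios of whole numbers up to 4, within 0.3%, among genes at 2 to 200 FPKM. The brain and heart pair had most, with 277 of 3557 genes at its best offset, where the median over offsets was 61.

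Each library was compared with the other 4 (Python 3.11.15, pandas 2.3.3) by the rules given with the results: a minimum of 10 FPKM, a ratio of 4, a pseudocount of 1 on the log2 scale, which understates the change of low genes, and a filter at a mean of 1 FPKM. The script was tested on simulated data. All members are named. The members and lists were chosen with earlier results of these data known. A RefSeq table of a later assembly held all 36 symbols but no Ensembl identifiers, so no coordinates are given and no sequence was used. How the authors assigned reads shared with processed gene copies or overlapping genes is not given, so values of such genes are uncertain. Alternatives covered pseudocounts, minimums, ratios, filters, rescaling and the reference.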

Additional observations from a re-analysis of the deposited data

How the results depend on the processing

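No paired analysis was possible because each label has 1 library. The call of TIMM17B in the limb library, HSPA9 in the skin library and TIMMDC1 in the heart library held under every alternative run. MTX2 was no longer called at a ratio of 8. TOMM34 was no longer called with a pseudocount of 10, a minimum of 50 FPKM or rescaling to a sum of 1000000. The number of members above 0 in all libraries, and in each, stayed within 1.5 times when 1 or 10 FPKM was required. Enriched members numbered 1 in all, 2 with a pseudocount of 0.1, 4 at a ratio of 2 and 7 against the mean of the other 4. Without the brain, skin, lung or limb library they numbered 4, 2, 2 and 2 over the 4 that remained, against 1 in each case with all libraries in the reference. Depleted members numbered 4 in all, 10 at a ratio of 2, 27 against the mean of the other 4, 7 without the lung library (4 with it in the reference) and 5 without the limb library (2 with it). Comparisons of members that were apart in a pair numbered 79, and 52 with a pseudocount of 10, 40 with a minimum of 50 FPKM and 155 at a ratio of 2. The settings change the thresholds, the pseudocount, the scale or the reference of the rules, and why each count moved was not tested.

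The median difference kept its sign in each library under every alternative run. For the brain library it was 0.30, and 0.41 with a pseudocount of 0.1 and 0.50, 0.57 and 0.14 without the skin, lung and heart libraries. For the skin library it was 0.53, and 0.39 with a pseudocount of 10, 0.40 rescaled to 1000000, 0.42 rescaled by the median ratio, 0.30 against the median of the other 4 and 0.26 and 0.31 without the heart and limb libraries. For the lung library it was 0.46, and 0.69 and 0.33 without the skin and heart libraries. For the heart library it was -0.53, and -0.36 rescaled by the median ratio, -0.40 against the median of the other 4 and -0.40 and -0.35 without the brain and lung libraries. For the limb library it was -0.38, and -0.61 against the median of the other 4 and -0.55, -0.49 and -0.68 without the brain, lung and heart libraries. The ratio of the highest to the lowest summed level was 1.66, and 1.44 rescaled by the median ratio. The cause of these changes was not tested. Depth limits every member near or below about 10 FPKM, where a value may rest on single reads. The rough level of 1 read reached 12.4 FPKM in the skin library, so values somewhat above 10 FPKM may also rest on few reads.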

Other observations

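Zeros of lower members coincided between genes. TIMM10B, TIMM21 and PMPCA were listed at 0 in the lung and limb libraries and above 0 in the other 3, which makes 3 of the 5 members listed at 0 in exactly 2 libraries. Of all genes listed at 0 in exactly 2 libraries, 12.5% had this pattern (183 of 1469). TIMM21 was highest in the brain library, at 57.6 FPKM. TIMM10B and PMPCA were highest in the skin library, at 82.9 FPKM and 52.9 FPKM. The pattern leaves only the brain, skin and heart libraries for a highest value, so this is not a further shared trait. The 3 genes belong to different steps of import. The pattern was noticed in the data and rests on 3 genes in 1 library per label.

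TOMM20L, listed at 0 in all 5 libraries, and TIMM9, at 81.3 to 216 FPKM, are next to each other in the RefSeq gene order of a later cattle assembly, with no other protein-coding gene between them. In no other case were 2 import genes neighbours in that order.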
